A study of Mus musculus with 32 samples.

Results

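Astrocyte identity genes were taken as a list of 10: Aqp4, Gfap, S100b, Fabp7, Slc1a2, Slc1a3, Gja1, Gjb6, Aldh1l1 and Glul. Each was read from probe sets that carry 1 gene symbol, and the probe set with the highest mean over all 32 arrays stood for the gene. All 10 were found among 19938 genes, and only Glul had a second probe set. The study implanted BAL17, a mouse B cell lymphoma line, or BAL17VII, a line derived from it, into brains of BALB/c wild-type mice to model a lymphoma that grows within the central nervous system. The groups were 5 brains 21 days after 500000 BAL17VII cells, 5 brains 21 days after 500000 BAL17 cells, 5 brains 28 days after 500000 BAL17 cells, and 5 control brains 28 days after PBS. No PBS brains of day 21 were analysed here, so in both comparisons of day 21 with PBS the day differs along with the implant. The lines in culture, with 6 arrays of BAL17VII and 6 of BAL17 cells, served as a background. The labels do not say whether arrays of a group came from separate cultures. They call the brain samples whole brain but give frozen tissue section as the extraction. Which part of each brain was sampled is not stated. Levels are log2 of the deposited RMA intensity, and they are compared between groups for the same gene and not between genes.

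Astrocytes tile the brain and clear glutamate, potassium and water from the space around neurons. They wrap blood vessels with endfeet and are coupled to each other through gap junctions made of connexins. After injury or around tumours they are known to become reactive, a state in which the intermediate filament gene Gfap usually rises. Several of the 10 genes are not exclusive to astrocytes: S100b is also found in oligodendrocytes, Fabp7 in radial glia and Bergmann glia, and Glul in many dividing cells.

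The cultured lines gave the level of each gene in the lymphoma cells in culture. What the implanted cells express in a brain was not measured apart from the tissue, and lines and brains carry different run labels. Fabp7, S100b, Slc1a3, Gja1, Gjb6 and Aldh1l1 lay above the array median on 0 of 12 line arrays, Aqp4 and Slc1a2 on 1 and Gfap on 2. Glul, the glutamine synthetase gene, was the exception and lay above the median on 12 of 12. Glul ranged from 11.45 to 11.80 over the 4 brain groups, against 9.14 to 9.78 in cultured BAL17VII cells and 8.62 to 9.04 in cultured BAL17 cells. The means of the 20 brains stood above those of the 12 line arrays for every member, by 1.06 for Aldh1l1, 1.83 for Gfap and between 2.38 (Gjb6) and 4.97 (Slc1a2) for the other 8. RMA gives no detection call, so a level below the median is not a measured absence.

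**Figure D1:**
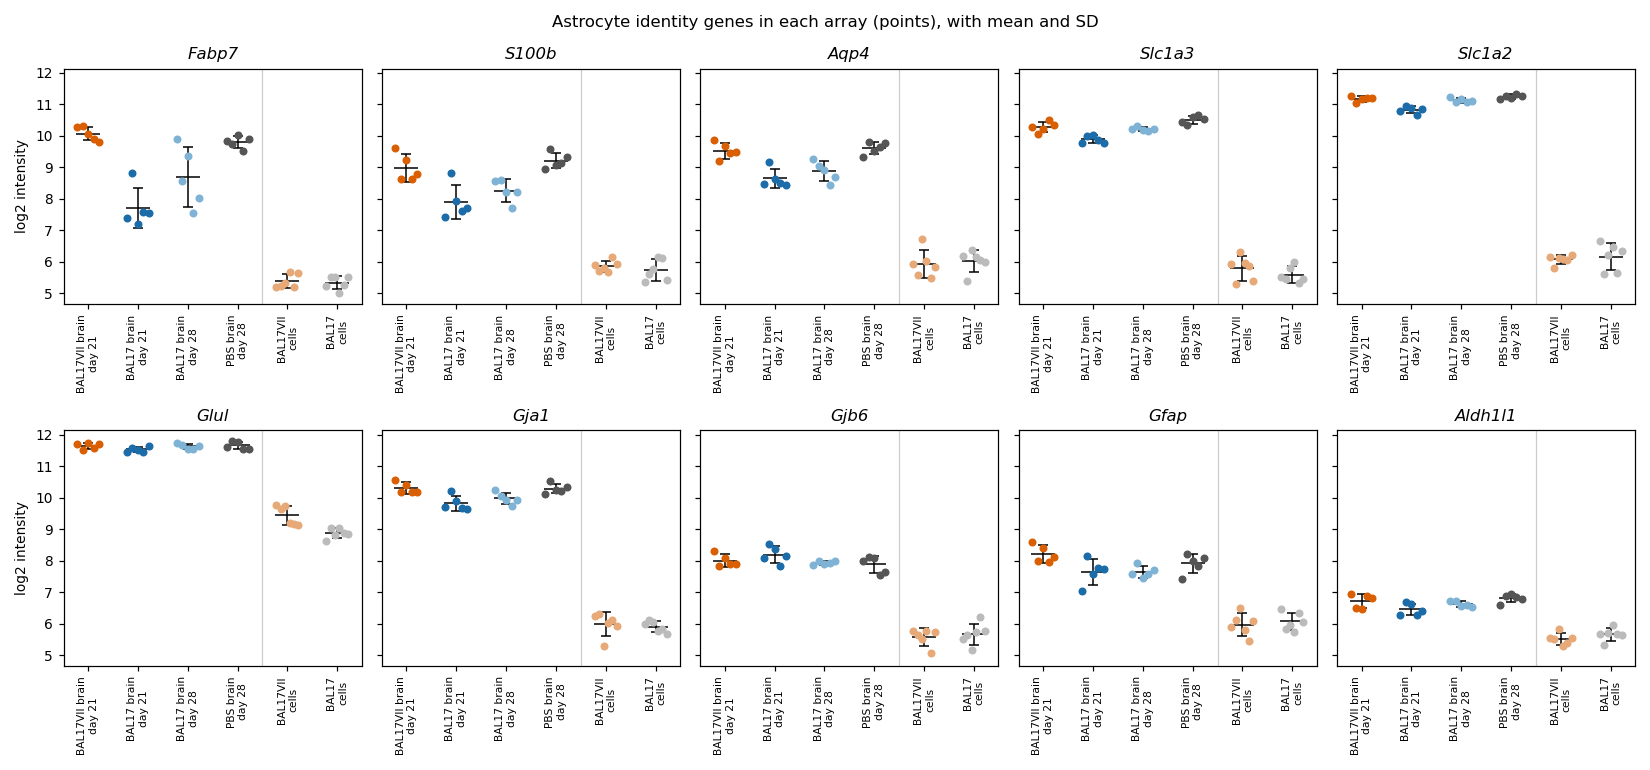
Log2 intensity of the 10 genes on each array. Each point is 1 array, with the group mean and SD as bars; brain groups stand left of the vertical line (n = 5 each) and cultured lines right of it (n = 6 each). Levels are not compared between panels. Fabp7 lies between 7.20 and 8.84 in BAL17 brains of day 21 and between 9.51 and 10.03 in PBS brains.

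Some facts of the samples bear on every result below. Replicate 1 of the 5 BAL17VII brains had lymphoma genes at the level of PBS brains: its mean over 14 B lineage genes was 5.96, against 5.87 to 6.10 in PBS brains, while the other BAL17VII brains ranged from 6.89 to 7.45. Its mean over 16 mitosis genes was 5.67, against 5.58 to 5.71 in PBS brains. The results of that group are therefore repeated without it in a paragraph of their own. The B lineage list averaged 6.93 in BAL17VII brains (range 5.96 to 7.45), 7.52 in BAL17 brains of day 21 (7.22 to 7.67), 7.64 in BAL17 brains of day 28 (7.52 to 7.80) and 6.01 in PBS brains (5.87 to 6.10). Marker lists of brain regions moved too, although the labels call the samples whole brain. Cerebellar genes averaged 8.33 in BAL17VII brains, 8.36 in BAL17 brains of day 21, 8.80 in BAL17 brains of day 28 and 9.03 in PBS brains, striatal genes averaged 8.02 in BAL17 brains of day 28 against 9.19 in PBS brains, and pituitary genes ranged from 5.58 to 9.14 in BAL17VII brains against 5.61 to 6.54 in PBS brains. The part of these shifts in the astrocyte values was not tested. In such bulk samples fewer astrocytes and less RNA per astrocyte cannot be told apart.

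Of the 10 astrocyte genes, 7 fell relative to PBS brains in BAL17 brains of day 21 and 5 in those of day 28, while in BAL17VII brains 0 passed the same threshold. In BAL17 brains of day 21, these 7 genes fell and 0 rose at an adjusted p under 0.05 (limma over 11965 genes), led by Fabp7, S100b and Aqp4. Over all genes tested 45.1% were called there and 32% were lower. At day 28, 5 of the 10 fell in BAL17 brains and 0 rose, where 30.5% of all genes were called and 21.6% were lower. Values did not overlap with PBS brains for 5 of the 10 in BAL17 brains of day 21 (26.6% of all genes), for 3 in those of day 28 (22.5%) and for 0 in BAL17VII brains (3.68%). Among the same 10, BAL17VII brains of day 21 had 0 called, against 5.01% of all genes called and 1.64% lower, and 1 of 10 had an unadjusted p under 0.05. Leaving out replicate 1 of the BAL17VII brains also gave 0 of 10, while leaving out replicate 4 gave 1 of 10 (Slc1a3, -0.28, adjusted p = 0.0333). Markers of other cells moved in the same comparisons. Of 12 B lineage genes, relative to PBS, 9 rose in BAL17VII brains (median 0.99), 11 rose and 1 fell in BAL17 brains of day 21 (median 1.72), and 11 rose in those of day 28 (median 1.82). Of 10 microglia genes 0 were called in BAL17VII brains, 8 fell in BAL17 brains of day 21 and 1 fell in those of day 28. Of 9 endothelial genes 2 fell in BAL17VII brains, while 5 fell and 1 rose in BAL17 brains of either day. The part of these markers in the astrocyte values was not tested.

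The direct comparison of the lines at day 21 addressed that difference itself. Of the 10 genes, 7 were higher in BAL17VII than in BAL17 brains and 0 were lower, where 24.1% of all genes were called and 17.3% were higher. Without replicate 1 of the BAL17VII brains 6 were called, with Gfap lost, where 1758 of 11965 genes were called in all. In the same comparison BAL17VII brains had 9 of 12 B lineage genes (median -0.78) and 11 of 16 mitosis genes (median -0.70) below BAL17 brains. The part of the lymphoma content in the astrocyte difference was not tested. Without replicate 1, 5 B lineage genes were lower and 1 was higher (median -0.44), and 5 mitosis genes were lower (median -0.38). Microglia genes were higher in BAL17VII than in BAL17 brains for 7 of 10 and endothelial genes for 4 of 9. Values of the astrocyte genes did not overlap for 4 of the 10, against 10.2% of all genes. Between the days, 2 of the 10 were higher in BAL17 brains of day 28 than in those of day 21, where 1.5% of all genes were called and 1.01% were higher. Those 2 did not overlap between the days, as was the case for 5.22% of all genes. The comparisons with PBS share the same 5 PBS brains, and the direct ones share the BAL17 brains of day 21, so the values stand side by side and are not independent of each other. The SE of every difference rests on a spread shared by the 4 brain groups.

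**Figure D2:**
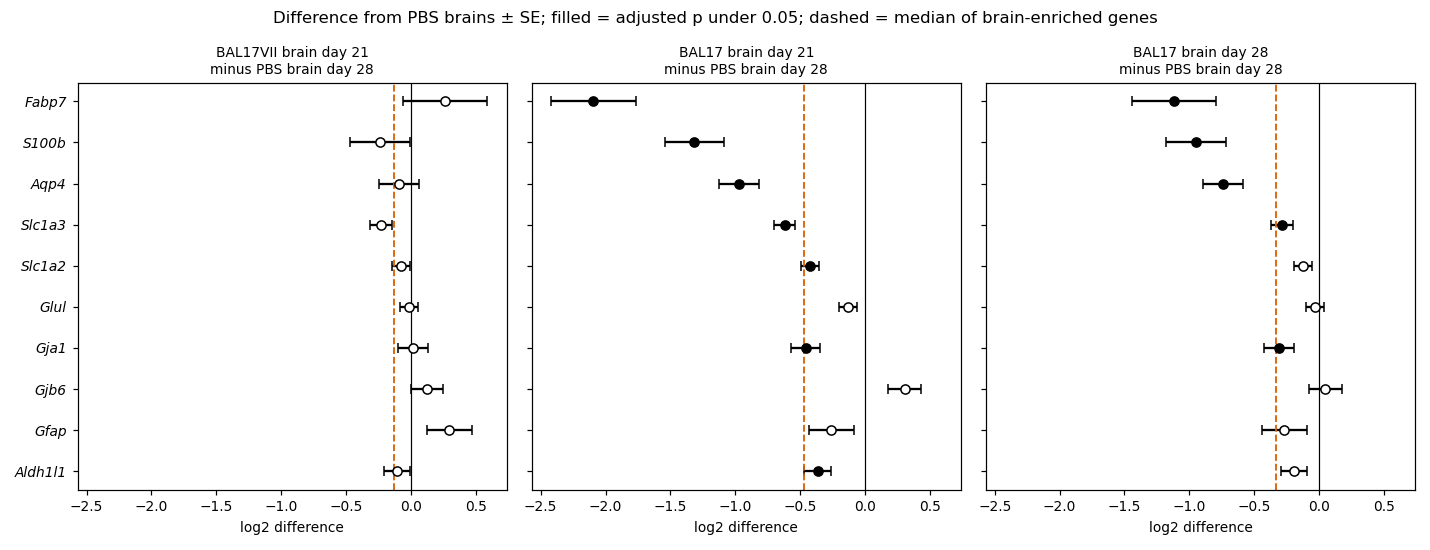
Log2 difference from PBS brains for each gene (points) with limma's SE (bars), in BAL17VII brains of day 21, BAL17 brains of day 21 and BAL17 brains of day 28, n = 5 brains each against 5 PBS brains. Filled points passed an adjusted p under 0.05 and the dashed line is the median of brain-enriched genes; Fabp7, S100b and Aqp4 lie furthest left in both BAL17 groups, and 0 points are filled for BAL17VII brains.

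Fabp7 encodes the brain fatty acid binding protein of radial glia and astrocytes. Its level was 10.27, 10.30, 10.07, 9.91 and 9.81 in the BAL17VII brains, 7.38, 8.84, 7.20, 7.60 and 7.55 in BAL17 brains of day 21, 9.89, 8.57, 9.38, 7.57 and 8.03 in BAL17 brains of day 28, and 9.83, 9.75, 10.03, 9.51 and 9.91 in PBS brains. All 5 BAL17 brains of day 21 lay below all PBS brains, while those of day 28 spread widely and 1 of them reached the PBS range. The mean of BAL17 brains of day 21 was 7.71 ± 0.65 (SD), against 9.81 ± 0.20 in PBS brains, a fall of -2.09 ± 0.33 (SE) on the log2 scale, or 0.234 times the PBS level (adjusted p = 3.45e-05). At day 28 the BAL17 mean was 8.69 ± 0.95 and the difference from PBS -1.12 ± 0.33 (adjusted p = 0.0136). BAL17VII brains averaged 10.07 ± 0.22, which is 2.36 ± 0.33 above BAL17 brains of day 21, or 5.13 times their level (adjusted p = 7.00e-05), and did not overlap with them. Their difference from PBS was 0.27 ± 0.33 (adjusted p = 0.701). Replicate 2 of the BAL17 brains of day 21 was the highest of its group, and without it the difference of that group from PBS was -2.37. BAL17 brains of day 28 exceeded those of day 21 by 0.97 ± 0.33, which did not pass (adjusted p = 0.145) but did without replicate 2 of day 21 (1.25, adjusted p = 0.0298) or without replicate 4 of day 28 (1.25, adjusted p = 0.0443), and with array weights (1.16, adjusted p = 0.0242).

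S100b, which encodes a calcium-binding protein, followed Fabp7 in order. It measured 9.63, 8.63, 9.22, 8.63 and 8.79 in BAL17VII brains, 7.43, 8.83, 7.92, 7.61 and 7.72 in BAL17 brains of day 21, 8.57, 8.60, 8.23, 7.71 and 8.22 in BAL17 brains of day 28, and 8.95, 9.59, 9.08, 9.14 and 9.32 in PBS brains. Neither BAL17 group overlapped with PBS brains, and replicate 2 of the BAL17 brains of day 21 again stood highest in its group. S100b fell by 1.32 ± 0.23 in BAL17 brains of day 21 (adjusted p = 0.000109) and by 0.95 ± 0.23 in those of day 28 (adjusted p = 0.00427) relative to PBS brains. It was 1.08 ± 0.23 higher in BAL17VII than in BAL17 brains of day 21 (adjusted p = 0.00234). In BAL17VII brains its difference from PBS was -0.24 ± 0.23 (adjusted p = 0.614), and -0.40 without replicate 1 (adjusted p = 0.297).

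The promoters of Fabp7 and S100b are shown because these genes fell most, and those of Gjb6 and Gfap as a pair of genes that were not called against PBS, Gjb6 with the highest difference of the 10 in BAL17 brains of day 21 and Gfap as the gene of reactive astrocytes. Each runs from 250 bases before to 50 after the annotated start, read in the direction of the gene (RefSeq, mouse GRCm38.p6). The positions are chr10:57784673-57784972 on the plus strand for Fabp7, chr10:76253586-76253885 on the plus strand for S100b, chr14:57133562-57133861 on the minus strand for Gjb6 and chr11:102897151-102897450 on the minus strand for Gfap. Capitals mark matches, on either strand, to a STAT palindrome (TTCNNNGAA) or the short nuclear factor I motif TGGCA; STAT3 and nuclear factor I are regulators of astrocyte genes.
Fabp7: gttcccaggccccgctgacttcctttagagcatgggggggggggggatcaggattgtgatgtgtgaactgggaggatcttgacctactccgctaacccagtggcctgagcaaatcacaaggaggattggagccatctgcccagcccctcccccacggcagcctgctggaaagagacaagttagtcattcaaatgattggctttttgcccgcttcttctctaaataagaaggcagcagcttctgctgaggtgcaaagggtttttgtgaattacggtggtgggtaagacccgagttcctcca
S100b: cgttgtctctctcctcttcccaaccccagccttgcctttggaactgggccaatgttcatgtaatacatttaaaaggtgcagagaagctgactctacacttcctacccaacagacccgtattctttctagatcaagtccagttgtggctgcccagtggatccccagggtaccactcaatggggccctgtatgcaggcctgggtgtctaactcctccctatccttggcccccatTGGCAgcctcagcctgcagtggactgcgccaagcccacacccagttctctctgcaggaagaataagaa
Gjb6: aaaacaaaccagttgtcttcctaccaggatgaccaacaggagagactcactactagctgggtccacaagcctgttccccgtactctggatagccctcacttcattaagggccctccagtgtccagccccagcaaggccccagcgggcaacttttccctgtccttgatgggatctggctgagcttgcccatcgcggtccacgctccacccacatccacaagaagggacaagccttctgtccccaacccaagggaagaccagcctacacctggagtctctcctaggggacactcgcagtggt
Gfap: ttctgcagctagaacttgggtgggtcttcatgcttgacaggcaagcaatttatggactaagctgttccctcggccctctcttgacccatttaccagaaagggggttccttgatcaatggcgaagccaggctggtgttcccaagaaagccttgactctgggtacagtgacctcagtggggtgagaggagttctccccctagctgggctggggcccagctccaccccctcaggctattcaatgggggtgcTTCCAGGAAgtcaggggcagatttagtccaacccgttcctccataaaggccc
The promoters of 9 members were searched, and that of Aqp4 was not used here. The STAT palindrome occurred in 2 of the 9, Gfap and Slc1a3, and in 8.30% of 32851 mouse promoters of this length. The short motif occurred in S100b and Aldh1l1 and in 48.9% of all promoters. The full nuclear factor I palindrome (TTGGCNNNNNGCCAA) occurred in 0 of the 9 and in 0.0365% of all. A match is a run of letters and not a measured site.

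Aqp4 is the water channel of the endfeet. Its levels were 9.88, 9.19, 9.67, 9.44 and 9.48 in BAL17VII brains, 8.48, 9.17, 8.63, 8.51 and 8.45 in BAL17 brains of day 21, 9.27, 9.05, 8.92, 8.46 and 8.70 in BAL17 brains of day 28, and 9.34, 9.81, 9.53, 9.64 and 9.79 in PBS brains. Replicate 2, the highest BAL17 brain of day 21, stood just under the lowest BAL17VII brain, and no BAL17 brain reached the PBS range. Aqp4 fell by 0.97 ± 0.15 in BAL17 brains of day 21 (0.51 times PBS, adjusted p = 4.35e-05) and by 0.74 ± 0.15 in those of day 28 (adjusted p = 0.0014). BAL17VII brains exceeded BAL17 brains of day 21 by 0.88 ± 0.15 (adjusted p = 0.000583) and differed from PBS by -0.09 ± 0.15 (adjusted p = 0.801), or by -0.17 ± 0.16 without replicate 1 (adjusted p = 0.542).

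The gap junction genes went apart. Gja1, the most widespread connexin gene of astrocytes, fell by 0.46 ± 0.12 in BAL17 brains of day 21 relative to PBS (9.83 ± 0.24 against 10.29 ± 0.15 SD, adjusted p = 0.00296) and was 0.48 ± 0.12 higher in BAL17VII than in BAL17 brains of that day (adjusted p = 0.0057). Its fall of 0.31 ± 0.12 in BAL17 brains of day 28 (adjusted p = 0.0462) did not pass without replicate 2, 3, 4 or 5 of that group or without replicate 2, 3 or 5 of the PBS brains (adjusted p between 0.0516 and 0.130), with quantile normalization (-0.20, adjusted p = 0.100), with no filter (adjusted p = 0.0655) or with all arrays in the fit (adjusted p = 0.0891). Gjb6 encodes the other main connexin of astrocytes. It measured 8.31, 7.85, 8.10, 7.89 and 7.90 in BAL17VII brains, 8.08, 8.52, 8.38, 7.83 and 8.15 in BAL17 brains of day 21, 7.88, 8.01, 7.88, 7.92 and 7.98 in BAL17 brains of day 28, and 8.01, 8.13, 8.09, 7.56 and 7.65 in PBS brains. The 4 groups overlapped, and the mean of BAL17 brains of day 21 was the highest. That mean differed from PBS by 0.31 ± 0.13, just short of the threshold (adjusted p = 0.0511). It passed without replicate 4 of the BAL17 brains (0.40, adjusted p = 0.0144), without replicate 2 of the PBS brains (0.37, adjusted p = 0.0298) and without their replicate 3 (0.36, adjusted p = 0.0346). With all arrays kept it passed under quantile normalization (0.45, adjusted p = 0.00173), the stricter filter (adjusted p = 0.0436), robust moderation (adjusted p = 0.0496), array weights (0.29, adjusted p = 0.0392) and the replicate block (adjusted p = 0.0277). In BAL17VII brains and in BAL17 brains of day 28 Gjb6 differed from PBS by 0.12 ± 0.13 and 0.05 ± 0.13 (adjusted p = 0.633 and 0.793). Under quantile normalization Gjb6 was also lower in BAL17VII than in BAL17 brains of day 21 (-0.29, adjusted p = 0.0463).

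Of the glutamate handling genes, the transporters fell and the enzyme did not pass. Slc1a3, which encodes GLAST, was 10.29, 10.06, 10.21, 10.50 and 10.36 in BAL17VII brains, 9.77, 10.01, 10.03, 9.86 and 9.78 in BAL17 brains of day 21, 10.20, 10.33, 10.20, 10.16 and 10.22 in BAL17 brains of day 28, and 10.45, 10.33, 10.59, 10.65 and 10.52 in PBS brains. It fell by 0.62 ± 0.08 in BAL17 brains of day 21 (adjusted p = 6.81e-06) and by 0.29 ± 0.08 in those of day 28 (adjusted p = 0.0137) relative to PBS, and neither BAL17 group overlapped with PBS brains, although the nearest brains of day 28 and PBS round to the same 10.33. Its call at day 28 was lost with quantile normalization (-0.19, adjusted p = 0.116) and with all arrays in the fit (adjusted p = 0.104). Slc1a2, which encodes GLT-1, the main glutamate transporter of the forebrain, was 11.28, 11.03, 11.17, 11.19 and 11.20 in BAL17VII brains, 10.78, 10.96, 10.88, 10.67 and 10.85 in BAL17 brains of day 21, 11.25, 11.06, 11.17, 11.06 and 11.10 in BAL17 brains of day 28, and 11.17, 11.25, 11.20, 11.35 and 11.28 in PBS brains. BAL17 brains of day 21 lay below all others. Slc1a2 fell there by 0.42 ± 0.07 relative to PBS (adjusted p = 5.66e-05), and in BAL17 brains of day 28 its difference was -0.12 ± 0.07 (adjusted p = 0.184). BAL17VII brains exceeded BAL17 brains of day 21 by 0.39 ± 0.08 for Slc1a3 and 0.35 ± 0.07 for Slc1a2 (adjusted p = 0.00243 and 0.00152).

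Both transporters were also the only 2 of the 10 genes called between the days. Slc1a2 was 0.30 ± 0.07 and Slc1a3 0.33 ± 0.08 higher in BAL17 brains of day 28 than in those of day 21 (adjusted p = 0.0286 and 0.0466). These calls were close to the threshold. That of Slc1a2 was lost without replicate 1, 4 or 5 of day 21 or replicate 1, 3 or 5 of day 28 (adjusted p between 0.0547 and 0.107), and that of Slc1a3 without replicate 1, 4 or 5 of day 21 or any 1 brain of day 28 (adjusted p between 0.0669 and 0.137). Both were lost with no filter (adjusted p = 0.0547 and 0.0759) and with all arrays in the fit (adjusted p = 0.283 and 0.254), and that of Slc1a3 also with quantile normalization (adjusted p = 0.0547) and the replicate block (adjusted p = 0.0554). Glul, which turns the glutamate taken up into glutamine, averaged 11.65 ± 0.09 in BAL17VII brains, 11.53 ± 0.09 in BAL17 brains of day 21, 11.63 ± 0.07 in BAL17 brains of day 28 and 11.66 ± 0.12 in PBS brains (SD). Its difference from PBS in BAL17 brains of day 21 was -0.13 ± 0.07 (adjusted p = 0.145). With the mean of its 2 probe sets that difference was -0.20 and passed (adjusted p = 0.0387), as it did with quantile normalization (-0.18, adjusted p = 0.0144). The cultured lines, which the implanted cells come from, had Glul 2.46 below the brains on average but well above the array median.

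Gfap, the classic gene of reactive astrocytes, did not rise in any implanted group at the threshold. It measured 8.60, 7.98, 8.42, 7.95 and 8.13 in BAL17VII brains, 7.03, 8.16, 7.59, 7.77 and 7.74 in BAL17 brains of day 21, 7.57, 7.93, 7.44, 7.59 and 7.72 in BAL17 brains of day 28, and 7.44, 8.23, 8.0, 7.83 and 8.09 in PBS brains. All groups overlapped with PBS brains, and 2 BAL17VII brains lay above them. Differences from PBS were 0.30 ± 0.17 in BAL17VII brains (adjusted p = 0.34), -0.26 ± 0.17 in BAL17 brains of day 21 (adjusted p = 0.228) and -0.27 ± 0.17 in those of day 28 (adjusted p = 0.247). Gfap was 0.56 ± 0.17 higher in BAL17VII than in BAL17 brains of day 21 (adjusted p = 0.024). That call was lost without replicate 1 or 3 of the BAL17VII brains (adjusted p = 0.0801 and 0.058) or replicate 1 of the BAL17 brains (adjusted p = 0.0813), and with only the groups compared in the fit (adjusted p = 0.06). Aldh1l1, which encodes a folate enzyme used as a marker of all astrocytes, lay near the array median with 6.72 ± 0.22 in BAL17VII brains, 6.46 ± 0.19 in BAL17 brains of day 21, 6.63 ± 0.09 in BAL17 brains of day 28 and 6.82 ± 0.13 in PBS brains (SD). It fell by 0.36 ± 0.10 in BAL17 brains of day 21 relative to PBS (adjusted p = 0.00626), and at day 28 its difference passed with array weights (-0.21, adjusted p = 0.0474). Against BAL17 brains of day 21 it was 0.26 ± 0.10 higher in BAL17VII brains, which did not pass (adjusted p = 0.0658) but did without replicate 2 or 3 of the BAL17 brains or replicate 2 or 3 of the BAL17VII brains (adjusted p between 0.0243 and 0.0489), and with array weights (0.27, adjusted p = 0.0409).

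Without replicate 1 of the BAL17VII brains, the group still had 0 of 10 genes called against PBS, and the median of the 10 was -0.08, against -0.17 for brain-enriched genes (defined in the next paragraph). Differences from PBS were then 0.22 ± 0.35 for Fabp7, 0.20 ± 0.17 for Gfap and 0.05 ± 0.13 for Gjb6, and those of the other 7 lay between -0.40 (S100b) and -0.03 (Glul), with Gja1 turning to -0.05 ± 0.12. Compared with BAL17 brains of day 21, Fabp7 was 2.31 ± 0.35 higher, S100b 0.92 ± 0.22, Aqp4 0.80 ± 0.16, Gja1 0.41 ± 0.12, Slc1a3 0.39 ± 0.09 and Slc1a2 0.32 ± 0.07 (adjusted p between 0.000209 and 0.0218). Gfap (0.46 ± 0.17), Aldh1l1 (0.20 ± 0.10), Glul (0.10 ± 0.08) and Gjb6 (-0.26 ± 0.13) did not pass. The median of the 10 was 0.40 in that comparison, against 0.29 for brain-enriched genes, of which 486 of 1177 were higher.

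Most genes of the brain were lower in BAL17 brains, so the 10 genes were also set beside 1177 brain-enriched genes, whose mean over the brains exceeded that over the lines by at least 2 on the log2 scale. Of the 10, 8 belong to this set. In BAL17 brains of day 21 the median difference from PBS was -0.44 for the 10 genes, against -0.47 for brain-enriched genes, of which 83.7% fell, and -0.11 for all genes. At day 28 it was -0.28 for the 10 genes, against -0.33 for brain-enriched genes, of which 64.1% fell, and -0.10 for all genes. BAL17VII brains had a median of -0.04 for the 10 genes, against -0.13 for brain-enriched genes, of which 4.5% fell, and -0.03 for all genes. Relative to BAL17 brains of day 21, the median in BAL17VII brains was 0.43 for the 10 genes, against 0.32 for brain-enriched genes, of which 55.9% were higher. In BAL17 brains of day 28 it was 0.20 for the 10 genes, against 0.13 for brain-enriched genes, of which 5.52% were higher. Relative to PBS the median of the 10 thus lay inside the middle range of the brain-enriched genes for BAL17 brains, between their quartiles of -0.60 and -0.34 at day 21 and of -0.46 and -0.24 at day 28. In the other 3 comparisons it lay just under their upper quartile, which was -0.02 for BAL17VII against PBS brains, 0.45 for BAL17VII against BAL17 brains and 0.24 between the days. For BAL17 brains of day 21 only 0.085% of brain-enriched genes had a lower difference than Fabp7, 0.51% a lower one than S100b and 2.89% a lower one than Aqp4, whereas 98.6% were lower than Gjb6 and 94.0% lower than Glul. Gja1, Slc1a2 and Slc1a3 lay inside the bulk, with 52.0%, 60.2% and 22.7% of brain-enriched genes below them.

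**Figure D3:**
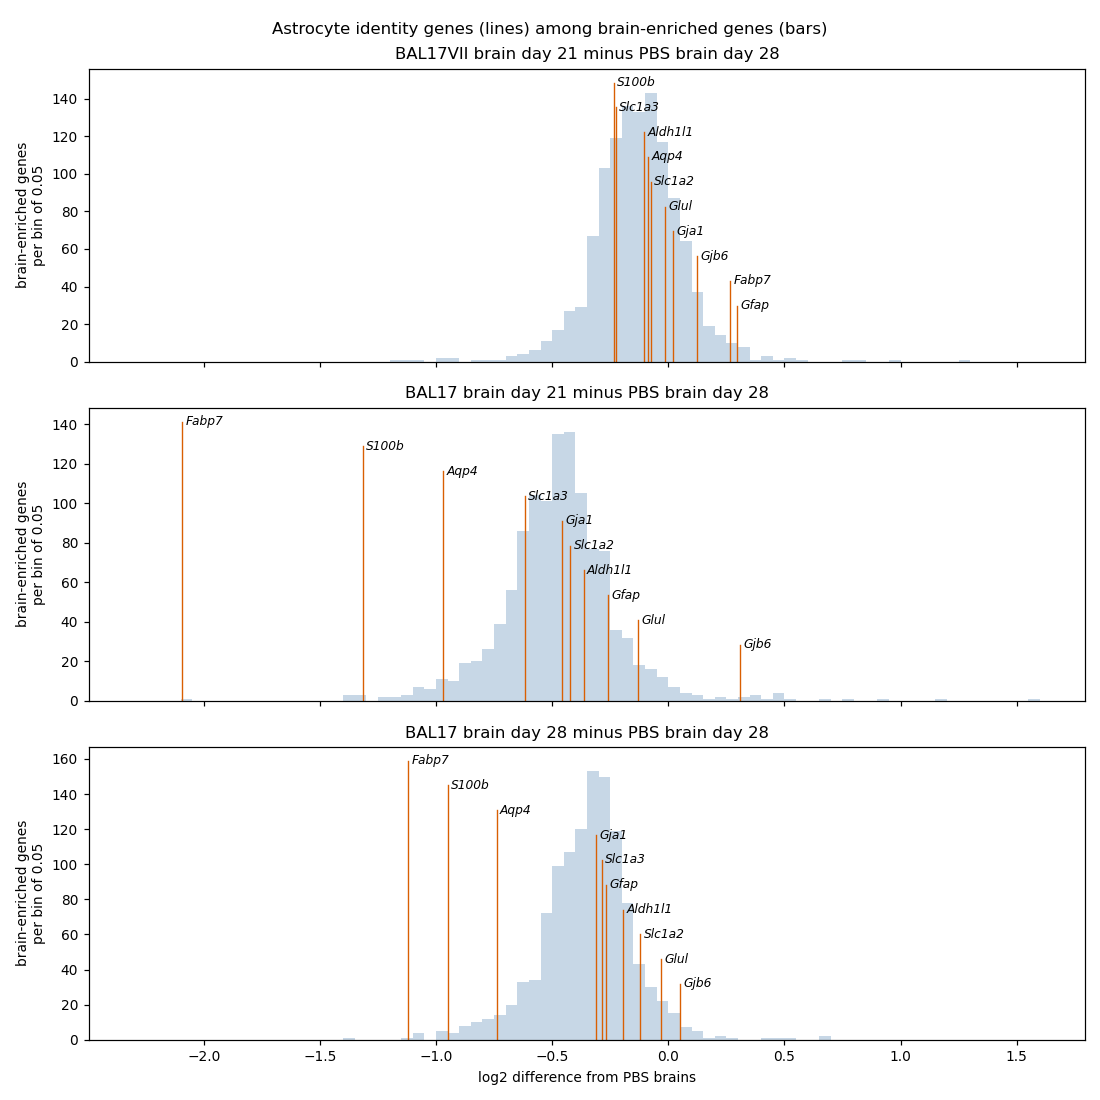
Number of brain-enriched genes (bars, bins of 0.05) by log2 difference from PBS brains, with the 10 genes as vertical lines whose height has no meaning. In BAL17 brains of day 21 Fabp7, S100b and Aqp4 lie left of most bars and Gjb6, at 0.31, right of them; in BAL17VII brains all 10 lie between -0.24 and 0.30.

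The difference from the other brain genes was tested by centring each array on the median of its brain-enriched genes before the same fit. On this scale Fabp7 (-1.61 ± 0.32, adjusted p = 0.000182), S100b (-0.84 ± 0.20, adjusted p = 0.000836) and Aqp4 (-0.49 ± 0.13, adjusted p = 0.0017) were still lower in BAL17 brains of day 21 than in PBS brains. Gjb6 (0.79 ± 0.10, adjusted p = 2.24e-06) and Glul (0.35 ± 0.08, adjusted p = 0.000367) were higher, where 8150 of all 11965 genes were called higher on this scale and 213 lower. Gja1 (0.02 ± 0.09), Slc1a2 (0.06 ± 0.07), Slc1a3 (-0.14 ± 0.08), Aldh1l1 (0.11 ± 0.08) and Gfap (0.22 ± 0.16) did not pass. Thus 4 of the 7 genes that fell were not called apart from that median, which does not show that they equal it. At day 28 Fabp7 (-0.78 ± 0.32), S100b (-0.61 ± 0.20) and Aqp4 (-0.40 ± 0.13) were again lower (adjusted p between 0.0127 and 0.0468, the latter for Fabp7), and Gjb6 (0.39 ± 0.10), Glul (0.31 ± 0.08) and Slc1a2 (0.22 ± 0.07) were higher (adjusted p between 0.00243 and 0.0113). Over all genes 6059 were called higher and 181 lower there, so the direction of these 3 rises is that of most calls. Relative to the PBS mean, Fabp7 was then 0.38, -0.95, -0.06, -1.85 and -1.42 in the BAL17 brains of day 28. PBS brains ranged from -0.22 to 0.29, so replicates 1 and 3 did not lie below them. The SE of Fabp7 is shared by groups of unequal spread, with an SD of 0.95 at day 28 and 0.20 in PBS brains before centring. In BAL17VII brains 0 of 10 passed against PBS on this scale, where 797 of all genes were called higher and 32 lower. Relative to BAL17 brains of day 21, BAL17VII brains had higher Fabp7 (2.0 ± 0.32), S100b (0.72 ± 0.20) and Aqp4 (0.52 ± 0.13) and lower Gjb6 (-0.55 ± 0.10) and Glul (-0.25 ± 0.08), with adjusted p between 8.27e-05 and 0.00829. Over all 11965 genes 7210 were called lower in that comparison and 206 higher, so lower Gjb6 and Glul share the direction of most calls. Without replicate 1 of the BAL17VII brains 0 of 10 passed against PBS on this scale, and the same 5 passed against BAL17 brains: Fabp7 (1.99 ± 0.34), S100b (0.60 ± 0.20), Aqp4 (0.48 ± 0.13), Gjb6 (-0.58 ± 0.11) and Glul (-0.22 ± 0.08), with adjusted p between 0.000226 and 0.0278. The counts over all genes given above hold for all arrays and not for this setting. Between the days only Gjb6 passed, lower in BAL17 brains of day 28 than in those of day 21 (-0.40 ± 0.10, adjusted p = 0.0363). Glul is also made by the cultured lines, and the part of implanted cells in its value was not tested.

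**Figure D4:**
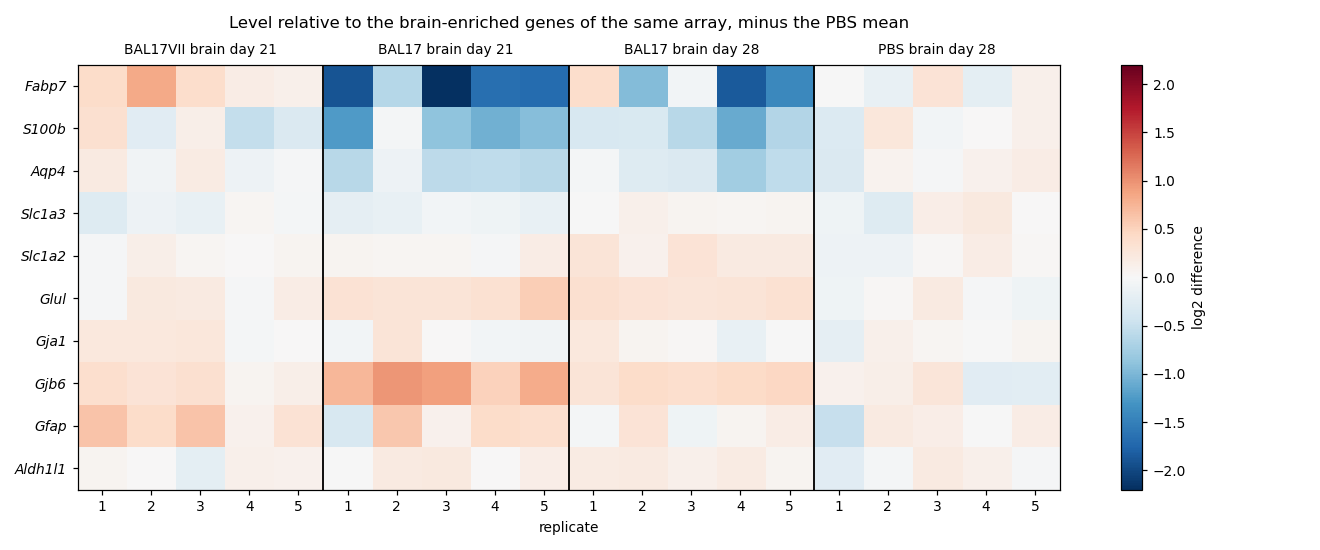
Level of each gene in each of the 20 brains relative to the median of the brain-enriched genes of the same array, minus the mean of the PBS brains (log2, colour scale). Columns are replicates of BAL17VII brains of day 21, BAL17 brains of day 21, BAL17 brains of day 28 and PBS brains; the rows of Fabp7, S100b and Aqp4 are blue in most BAL17 brains of day 21, where the row of Gjb6 is red in all 5.

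Among themselves the 10 genes varied together to different degrees across the 20 brains. Pearson's r over the 45 pairs ran from -0.42 to 0.97 with a median of 0.64, and from -0.01 to 0.96 with a median of 0.54 after each group was centred on its mean. Aqp4 and S100b (r = 0.97), S100b and Gja1 (0.96 after centring on groups) and Aqp4 and Gja1 (0.94 after centring) were the closest, and within a group the same brains tended to be high in all 3. Gjb6 had r between -0.42 and 0.22 with the other 9 across all brains, and between 0.05 and 0.64 within groups. These values are descriptions, since all genes of a brain share its array, its lymphoma content and whatever part of it was sampled.

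Genes outside the list with the most similar pattern over the 20 brains were named by the highest r among all genes tested. The cell types that express them were not examined. For S100b they were Rgl1 (0.984), Mlc1 (0.982) and Cd9 (0.981). For Fabp7 they were Ptn (0.971), which encodes the growth factor pleiotrophin, Rgs5 (0.952) and Lxn (0.940). For Aqp4 they were Dennd5a (0.977), Car2 (0.975) and Trp53inp2 (0.972), and for Gja1 Fez1, Cd9 and Chmp5 (0.971 to 0.972). Gjb6 was closest to Adipor2 (0.921), Tyw5 (0.878) and Ak3 (0.876). Slc1a2 was closest to Zeb2, Sipa1l1 and Dlg4 (0.949 to 0.957) and Slc1a3 to Ppfia2, Ttll5 and Ndrg3 (0.955 to 0.968). The top 3 of Aldh1l1 were Extl2, Eps15 and Chn1 (0.909 to 0.925), those of Gfap Cpq, Eci2 and Chtf8 (0.839 to 0.851) and those of Glul Pank1, Zfp788 and Pank3 (0.803 to 0.838).

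Further astrocyte genes, in 5 lists of glutamate and ion handling, junctions and endfeet, metabolism, secreted proteins and receptors, and transcription factors, were also mostly lower in BAL17 brains on the scale of the deposited values, which was not centred on brain-enriched genes for these lists. Of 60 tested, 44 fell and 2 rose in BAL17 brains of day 21 relative to PBS (median -0.45), 33 fell and 0 rose in BAL17 brains of day 28 (median -0.32), and 0 were called in BAL17VII brains (median -0.07). BAL17VII brains had 35 of the 60 higher than BAL17 brains of day 21 and 0 lower (median 0.33), and 29 higher and 0 lower without replicate 1. Without that replicate 486 of 1177 brain-enriched genes were higher. As shares of the 60, of which 31 are brain-enriched, 73.3% fell in BAL17 brains of day 21, against 32% of all genes and 83.7% of brain-enriched genes. At day 28, 55.0% fell, against 21.6% of all genes and 64.1% of brain-enriched genes. In BAL17VII against BAL17 brains 58.3% were higher, against 17.3% of all genes and 55.9% of brain-enriched genes. The shares of the list thus lay below those of brain-enriched genes in the comparisons of BAL17 brains with PBS. Among the falls in BAL17 brains of day 21 were Lcat, a cholesterol-esterifying enzyme (-1.35 ± 0.16, adjusted p = 1.36e-06), Fjx1 (-1.09 ± 0.17), Mlc1 (-0.84 ± 0.15), the endothelin receptor gene Ednrb (-0.83 ± 0.13) and Ptprz1, a receptor phosphatase (-0.71 ± 0.07, adjusted p = 3.95e-07). The amino acid transporter gene Slc38a3 (-0.69 ± 0.11), the transcription factor gene Nfia (-0.69 ± 0.10) and the tight junction gene Tjp1 (-0.65 ± 0.08) fell as well. The potassium channel gene Kcnj10 fell by 0.53 ± 0.15 (adjusted p = 0.00529) and Aldoc, an aldolase of astrocytes, by 0.41 ± 0.10 (adjusted p = 0.00229), while Apoe, an apolipoprotein, had a difference of 0.04 ± 0.11 (adjusted p = 0.816). Of 7 tested genes in a list of Bergmann and radial glia, the other cells known for Fabp7, 4 fell and 1 rose in BAL17 brains of day 21, 3 fell and 1 rose at day 28, and 0 were called in BAL17VII brains (1 rose without replicate 1), each relative to PBS. The falls stand beside 32% of all genes and 83.7% of brain-enriched genes at day 21, and 21.6% and 64.1% at day 28. The gene that rose was Vim, which is also counted among the reactive genes below and is high in the cultured lines.

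Of 16 reactive astrocyte genes on the array only 8 passed the filter on low levels and were tested. A gene that is low in PBS brains could pass that filter only where it was higher in implanted brains, so the direction of the list is in part set by the filter and its counts are a description. Of the tested genes, Cd44 (6.01) and Cxcl10 (6.13) had PBS means below every array median (6.35 or more). For Cd44 only BAL17VII brains averaged above that (6.63, against 6.24 and 6.20 in BAL17 brains of day 21 and day 28). The adjusted p of these genes below are therefore no support for a rise. The 16 averaged 6.62 in cultured BAL17VII cells and 6.53 in cultured BAL17 cells, against 6.75 in BAL17VII brains, 6.80 and 6.64 in BAL17 brains of day 21 and day 28 and 6.50 in PBS brains. These means lay near the array medians (6.35 to 6.54). Some of the genes were well above them in the lines, as given below. Others were below, such as Serpina3n with 5.39 in BAL17VII and 5.69 in BAL17 cells. In BAL17VII brains 3 of the 8 rose relative to PBS, where 3.37% of all genes did: Hspb1, a small heat shock protein gene (0.80 ± 0.16, adjusted p = 0.00349), the adhesion receptor gene Cd44 (0.62 ± 0.12, adjusted p = 0.00308) and the oncostatin M receptor gene Osmr (0.52 ± 0.14, adjusted p = 0.0358). Without replicate 1, 5 of the 8 rose in that group, Cd44 (0.74 ± 0.10), Hspb1 (0.92 ± 0.15), Vim (0.49 ± 0.11), Osmr (0.52 ± 0.15) and the chemokine gene Cxcl10 (0.88 ± 0.24), with adjusted p between 4.18e-05 and 0.0435. The 3.37% of all genes given above holds for all arrays and not for this setting. At day 21, 4 of the 8 rose in BAL17 brains, where 13.1% of all genes did, among them Cp, the ceruloplasmin gene (0.60 ± 0.13, adjusted p = 0.000964), Hspb1 (0.47 ± 0.16) and the intermediate filament gene Vim (0.42 ± 0.15). At day 28, 2 of the 8 rose in BAL17 brains, where 8.87% of all genes did, Hspb1 (0.64 ± 0.16, adjusted p = 0.00448) and Vim (0.42 ± 0.15, adjusted p = 0.0386). Hspb1 averaged 9.28 in cultured BAL17VII and 9.19 in cultured BAL17 cells, against 7.41 in PBS brains. Vim averaged 10.62 and 9.80 in those cells, against 9.31 in PBS brains, and Cd44 8.99 and 7.60, against 6.01. Osmr was below PBS brains in the lines, with 5.15 and 5.16 against 6.65, and so was Cp, with 5.85 and 7.39 against 7.88. The part of the implanted cells in these genes was not tested. Lists of other brain cells stood beside these values. Myelin genes averaged 9.60 in BAL17VII brains, 8.87 in BAL17 brains of day 21, 8.91 in BAL17 brains of day 28 and 9.57 in PBS brains. Of 19 neuron genes 15 fell in BAL17 brains of day 21 relative to PBS and 13 in those of day 28, and of 13 myelin genes 11 and 12 fell. Most of both lists are brain-enriched (18 neuron and 10 myelin genes). At day 21, 32% of all genes and 83.7% of brain-enriched genes fell, and at day 28 21.6% and 64.1%.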

How the data were processed

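Affymetrix mouse gene arrays were run on RNA of 20 brains and of 12 samples of cultured lines. For lines and brains alike the labels give frozen tissue and Trizol as the source of RNA. The deposited values are intensities on a linear scale. The submitters' processing notes name RMA and Affymetrix Expression Console without a version. RMA normalizes arrays to a common distribution, so a level is relative to the other genes of its array. Intensities ran from 2.72 to 17825 and array medians from 81.7 to 93.0. Of 35556 probe sets, 21789 carried 1 gene symbol, 1621 several and 12146 none in the platform's probe table, and 21698 of the first had an identifier in the mouse gene table.

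The log2 intensities were fitted with limma 3.58.1 in R 4.3.3, as group means over all 20 brains in a single fit with empirical Bayes moderation, two-sided, with Benjamini-Hochberg adjustment over all 11965 genes kept. A gene was kept where it exceeded its array's median on at least 5 brain arrays, and all 10 members were. A difference is a log2 fold change, given with the SE of the fit. No test was made between brains and lines, which carry different run labels. With 5 arrays a group the number of arrays limits the precision. A p-value weighs a difference of means against the spread within groups, which the fit shares over the brain groups. Correlations between arrays of a group were 0.974 to 0.989, and no pair was identical. Other genes are named as the 3 most similar to each member by Pearson's r, the 3 of each described list with the smallest adjusted p, and 10 fixed genes where kept. Alternatives were quantile normalization, centring on 2 sets of genes, filters, probe set means, moderation with a trend or made robust, weights per array, a block for replicate numbers, other choices of arrays in the fit, and omission of each array. Omission of replicate 1 of the BAL17VII brains was extended to the lists and to the centred scale after seeing the data. The fit was tested on simulated data. The members and lists were chosen with earlier results of these data known. Tables and figures were made with Python 3.11.15.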

Additional observations from a re-analysis of the deposited data

Results flagged for a closer look

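Of 60 sets of arrays of 1 gene and 1 group that were examined for an array far from the others, 3 held one, where chance gives about 1 in 20. They were the second BAL17 brain of day 21 for Fabp7 (8.84) and for Aqp4 (9.17), the highest of its group in both, and the fifth array of cultured BAL17VII cells for Gjb6 (5.06), the lowest of its group.

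BAL17VII and BAL17 brains differed in the direct test at day 21 for 7 genes, all higher in BAL17VII brains: Fabp7 by 2.36, S100b by 1.08, Aqp4 by 0.88, Gfap by 0.56, Gja1 by 0.48, Slc1a3 by 0.39 and Slc1a2 by 0.35 on the log2 scale. There 24.1% of all genes were called and 17.3% were higher, as were 55.9% of brain-enriched genes. The call of Gfap was lost without replicate 1 of the BAL17VII brains (adjusted p = 0.0801). The groups also differed in lymphoma genes, whose part was not tested. Between the days, Slc1a3 was 0.33 and Slc1a2 0.30 higher in BAL17 brains of day 28 than in those of day 21, where 1.5% of all genes were called. Both calls were close to the threshold.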

How the results depend on the processing

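Centring each array on brain-enriched genes changed most. It made 5 of the 10 genes called in BAL17 brains of day 21 against PBS and turned the sign of Gfap (0.22), Slc1a2 (0.056), Gja1 (0.021), Aldh1l1 (0.11) and Glul (0.35). In BAL17VII brains against PBS it turned Aqp4 (0.028), Slc1a2 (0.041), Aldh1l1 (0.012) and Glul (0.10), and in BAL17 brains of day 28 against PBS Gfap (0.074), Slc1a2 (0.22), Slc1a3 (0.053), Gja1 (0.031), Aldh1l1 (0.15) and Glul (0.31). In BAL17VII against BAL17 brains of day 21 it turned Slc1a2 (-0.015), Aldh1l1 (-0.10) and Glul (-0.25), and between days 28 and 21 of BAL17 Glul (-0.041), with 1 gene called, lower. This follows from its construction, since the median of brain-enriched genes was below 0 against PBS in all 3 implanted groups. Over all genes it called 8150 higher and 213 lower in BAL17 brains of day 21 against PBS, where the scale used above called 1572 and 3826. The same splits were 797 and 32 against 403 and 196 for BAL17VII brains, 6059 and 181 against 1061 and 2583 for BAL17 brains of day 28, and 206 and 7210 against 2069 and 816 for BAL17VII against BAL17 brains of day 21. Between the days 506 genes were called, mostly lower, against 121 higher and 59 lower.

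Members called in BAL17 brains of day 28 against PBS were 3 with quantile normalization and 3 with all arrays in the fit. Between days 28 and 21 they were 1 with quantile normalization, 0 with no filter and 0 with all arrays. For those the cause was not tested. Gfap between the days was at 0.0034 with centring on named probe sets and at 0.069 with array weights, and Glul in BAL17VII brains against PBS at 0.023 with array weights. Array replicate numbers did not pair the brains: same-numbered brains of different groups had a mean r of 0.07 and other brains -0.02, and 7 of 20 correlated best with their own number. With the replicate block 1 member was called between the days, Gjb6 passed in BAL17 brains of day 21 against PBS (0.31, adjusted p = 0.0277), and the counts of the other comparisons with 0, 5 and 7 members called were the same.

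Without 1 array at a time, 7 to 8 members were called for BAL17 brains of day 21 against PBS, 0 to 1 for BAL17VII brains, 4 to 5 for BAL17 brains of day 28, 6 to 8 for BAL17VII against BAL17 brains of day 21 and 0 to 3 between the days. Signs turned within small ranges for Gja1 (-0.049 to 0.075) and Glul (-0.038 to 0.022) in BAL17VII brains against PBS, for Gjb6 (-0.033 to 0.11) and Glul (-0.057 to 0.0024) in BAL17 brains of day 28 against PBS, and for Gfap (-0.17 to 0.12) between the days. Of the single differences under settings that keep all arrays, 540 kept direction and call, 15 gained a call, 18 lost it and 22 turned. Those that turned are listed in this section. Of the calls gained or lost, centring on brain-enriched genes gained those of Gjb6 in BAL17 brains of day 21 and day 28 against PBS, in BAL17VII against BAL17 brains and between the days. It lost those of Slc1a3 in BAL17 brains of day 21 against PBS (-0.14), of Gfap (0.19), Gja1 (0.11) and Slc1a3 (0.029) in BAL17VII against BAL17 brains, and of Slc1a2 (0.16) and Slc1a3 (0.19) between the days. The remaining gained and lost calls stand beside their genes in the text above.

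Counts over all genes moved by over 1.5 times under some settings. With a filter at percentile 75 they were 3286 for BAL17 brains of day 21 (5398 as above), 357 for BAL17VII brains (599) and 2343 for BAL17 brains of day 28 (3644), each against PBS, with fewer genes tested. With only the groups compared in the fit they were 258 for BAL17VII brains against PBS, 1692 for BAL17VII against BAL17 brains (2885) and 328 between the days (180). Array weights gave 936 for BAL17VII brains and 620 between the days, and quantile normalization 338 between the days. Without 1 array at a time they ran from 247 to 1318 for BAL17VII brains against PBS, from 1758 (without replicate 1 of the BAL17VII brains) to 3884 for BAL17VII against BAL17 brains, and from 44 to 272 between the days.

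Counts without replicate 1 of the BAL17VII brains on the centred scale and for the lists of other genes were added after seeing the data. Against PBS the reactive genes called were then 5 (3 with all arrays). Against BAL17 brains the B lineage genes called were 6 (9 with all arrays) and the mitosis genes 5 (11 with all arrays).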
